A study of Rattus norvegicus with 24 samples.

Results

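Contractile actin and the proteins that bind, bundle and anchor it were followed in primary rat hepatocytes kept in 2 kinds of collagen culture. The set held 10 genes, Acta1, Tagln, Cnn2, Flna, Actn1, Tpm1, Tpm2, Myl9, Vcl and Zyx, of the 14217 genes that the arrays read through a probe set with a single gene symbol. These genes were picked by name with their differences between the cultures already known, so those differences are given as a description with no test. Where a gene had several probe sets, the brightest on average over the 24 arrays stood for it. The 10 genes had 20 probe sets in all, and the further ones of Actn1, Tpm1, Tpm2 and Vcl are given beside the gene.

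Hepatocytes isolated from rat liver were seeded on a gel of type I collagen. Monolayer cultures stayed on that 1 layer, and sandwich cultures were covered with another layer 24 h after seeding, so that the cells lay between 2 layers. Both were fed daily with DMEM holding 10% heat-inactivated fetal bovine serum, penicillin, streptomycin, hydrocortisone (7.5 μg/mL), glucagon (14 ng/mL), insulin (0.5 U/mL) and epidermal growth factor (20 ng/mL). RNA was taken at days 1, 2, 3 and 8, counted from the laying of the upper gel, with 3 replicate arrays for each culture and day, which made 8 groups and 24 arrays. In the labels the monolayer is the unstable, negative control and the sandwich the stable, positive one. Whether the replicates are different animals or different dishes is not stated in the labels, and p-values therefore measure only the spread between these samples, which may be technical.

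Actin filaments become contractile when tropomyosins (Tpm1, Tpm2) line them, myosin II with its regulatory light chain (Myl9) pulls on them, and cross-linkers such as alpha-actinin (Actn1) and filamin (Flna) hold them in bundles and networks. Vinculin (Vcl) and zyxin (Zyx) tie the bundles to the matrix at focal adhesions, while calponin (Cnn2) and transgelin (Tagln) bind along the filament. Many of these genes are known targets of serum response factor, which binds a DNA element called the CArG box and works with the MRTF coactivators, themselves held back by free actin monomers. In the liver, hepatocytes carry actin mainly under the cell membrane and around the bile canaliculi, and on flat substrates they are known to spread and to form stress fibres.

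The 10 genes lay on the same side between the cultures, and promoters are shown for 4 of them to compare the elements they hold. Sequences are the 250 bases before the annotated start, from RefSeq (rat assembly GRCr8), and 8 of the 10 genes had an entry, with none for Tagln or Myl9. The Acta1 window lies at chr19:68784195-68784444, that of Cnn2 at chr7:10370313-10370562, that of Flna at chrX:157182344-157182593 and that of Tpm1 at chr8:76543416-76543665, all on the minus strand and written 5′ to 3′ in the direction of the gene. Acta1 was chosen as the gene with the largest culture difference, Cnn2 as the other gene with a CArG box, and Flna and Tpm1 as a cross-linker and a tropomyosin. Capitals mark a CArG box, the hexamer CATTCC (the core of the element bound by TEAD factors) and the TATA element TATAAA, searched on both strands.
Acta1: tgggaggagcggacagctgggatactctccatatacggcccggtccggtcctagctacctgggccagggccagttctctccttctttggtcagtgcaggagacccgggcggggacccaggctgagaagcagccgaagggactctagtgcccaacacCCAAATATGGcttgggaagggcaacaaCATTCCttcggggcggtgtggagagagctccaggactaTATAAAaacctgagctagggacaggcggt
Cnn2: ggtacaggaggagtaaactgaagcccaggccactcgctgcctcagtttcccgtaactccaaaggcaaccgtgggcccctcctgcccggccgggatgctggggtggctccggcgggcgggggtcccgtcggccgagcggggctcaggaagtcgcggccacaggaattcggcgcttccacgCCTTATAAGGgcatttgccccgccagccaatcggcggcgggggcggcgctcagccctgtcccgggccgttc
Flna: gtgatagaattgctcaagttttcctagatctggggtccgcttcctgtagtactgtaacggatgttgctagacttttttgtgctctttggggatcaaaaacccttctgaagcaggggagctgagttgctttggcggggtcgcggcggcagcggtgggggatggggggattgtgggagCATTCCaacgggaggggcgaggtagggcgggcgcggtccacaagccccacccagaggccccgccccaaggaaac
Tpm1: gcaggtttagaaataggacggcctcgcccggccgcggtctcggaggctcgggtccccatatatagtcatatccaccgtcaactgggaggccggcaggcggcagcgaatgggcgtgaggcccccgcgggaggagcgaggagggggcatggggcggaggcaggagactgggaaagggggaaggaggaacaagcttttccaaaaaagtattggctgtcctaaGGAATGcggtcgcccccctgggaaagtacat

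The 8 genes had 9 promoter windows, Zyx having 2, and a gene was counted where any of its windows held the element. A CArG box was present in 2 of the 8 genes, Acta1 (94 to 85 bases before the start, CCAAATATGG) and Cnn2 (71 to 62 bases before the start, CCTTATAAGG). Of all 27456 rat genes with windows of the same length, counted in the same way, 1.62% had such an element. The Vcl window opens with cttataagg, the Cnn2 box without its first base. The base before that window was not searched, so Vcl was counted as having no CArG box. CATTCC was found in 5 of the 8, Acta1, Flna, Tpm1, Vcl and Zyx, against 12.9% of all genes, and in Tpm1 it stands on the opposite strand, so that the printed strand reads GGAATG 31 to 26 bases before the start. In the part of the window nearer the start, 3 of the 8 genes had CATTCC, against 6.67% of all genes. Only Acta1 of the 8 held TATAAA, 29 to 24 bases before its start, an element present in 14.1% of all genes. A match describes the letters in this window and was not tested for binding. Among 71 other actin pathway genes with an entry, 4 held a CArG box, Actg1, Fhl2, Lima1 and Srf itself.

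Values are log2 probe set levels as deposited, and every level and difference below is on that scale unless a fold is named. Over all arrays they ran from 2.61 to 15.07, array medians lay between 5.57 and 5.67, and replicate arrays of a group correlated at 0.993 to 0.997 across probe sets against 0.958 to 0.995 for arrays of different groups. The files carry no detection call, so a fold is given only where both group means lie above 5.62, the median of all values, and the 3 arrays per group limit the precision. The 6 hepatocyte markers measured had a mean level of 12.5 to 12.99 in monolayer and 12.7 to 13.43 in sandwich, and albumin (Alb), at 15.00 to 15.04 in the group means, lay at the top of the range of the arrays. Of these 6 markers, 2, 3, 4 and 5 were called higher in sandwich at days 1, 2, 3 and 8 (limma, adjusted p under 0.05). The shares of all probe sets called higher were 0.573%, 1.87%, 7.70% and 11.9%. At each day 0 of the 6 were called lower, beside 1.20%, 3.96%, 8.84% and 15.6% of all probe sets. The part of these markers in the differences below was not tested. In whole-culture RNA, fewer cells of a type and less RNA per cell cannot be told apart.

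Acta1, the alpha-actin of skeletal muscle, stood furthest apart between the cultures. In monolayer the 3 arrays read 6.50, 6.35 and 6.60 at day 1, 9.24, 9.41 and 9.65 at day 2, 11.85, 11.51 and 11.91 at day 3 and 11.74, 11.77 and 11.81 at day 8. The sandwich arrays read 4.57, 4.47 and 4.45 at day 1, 5.49, 5.75 and 6.21 at day 2, 5.67, 5.36 and 7.25 at day 3 and 6.65, 5.91 and 5.80 at day 8. All 3 sandwich arrays lay below all 3 monolayer arrays at every day, and the third sandwich array of day 3 stood above its replicates. The sandwich minus monolayer difference was -1.99 ± 0.30 (SE of the model) at day 1, -3.62 at day 2 and -5.66 at days 3 and 8, with the same SE, which is 12.3-fold, 50.6-fold and 50.5-fold lower at days 2, 3 and 8. Without the third sandwich array the day 3 difference was -6.24. In order, monolayer days 8 and 3 were highest and overlapped, and monolayer days 2 and 1 followed apart from them and from each other. Sandwich days 8, 3 and 2 came next with overlapping arrays, and those of days 8 and 3 reached into the arrays of monolayer day 1. Sandwich day 1 was lowest, at 4.50.

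Tagln, transgelin, an actin-binding protein of contractile cells, had much the same course. In monolayer the 3 arrays read 6.30, 6.28 and 6.37 at day 1, 9.02, 9.15 and 9.47 at day 2, 11.33, 11.15 and 11.39 at day 3 and 11.0, 10.67 and 11.02 at day 8. For the sandwich, they read 4.77, 4.76 and 4.97 at day 1, 5.42, 6.25 and 6.31 at day 2, 5.91, 5.58 and 6.95 at day 3 and 7.33, 6.63 and 6.67 at day 8. The arrays of the cultures were apart at every day, but the sandwich level at day 8 lay above the monolayer level of day 1. Differences of -1.48, -3.22, -5.14 and -4.02 (± 0.25 each) were measured at days 1, 2, 3 and 8, or 9.32-fold, 35.3-fold and 16.2-fold lower in sandwich at days 2, 3 and 8. With all arrays, the mean difference was thus nearer 0 at day 8 than at day 3 for Tagln and not for Acta1. Without the third sandwich array of day 3, the day 3 differences were -5.54 for Tagln and -6.24 for Acta1. Both then lay further from 0 than the day 8 differences. The gap between these days was not tested.

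**Figure D1:**
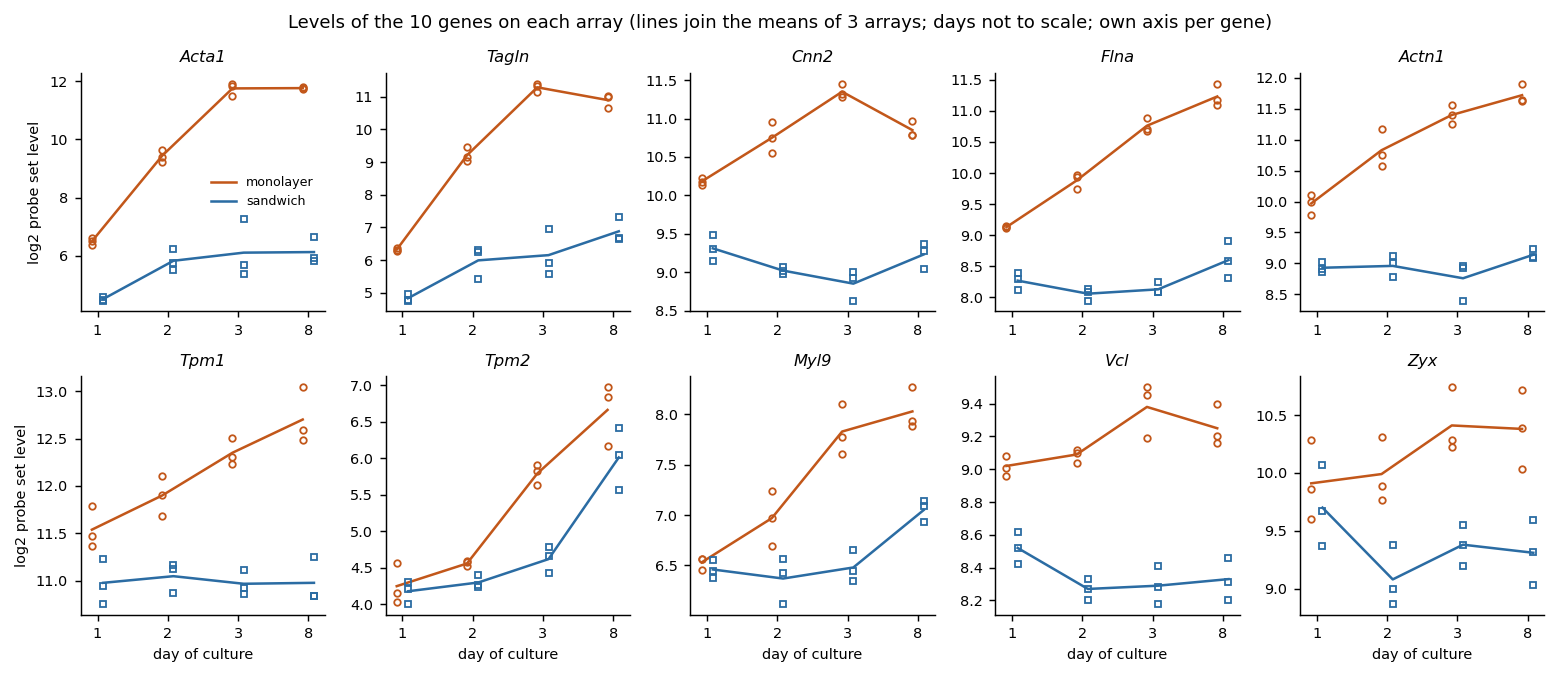
Each panel plots the log2 probe set level of 1 gene against the day of culture for monolayer (circles) and sandwich (squares); points are single arrays and lines join the means of 3. Monolayer levels of Acta1 climb from a mean of 6.49 to 11.77 while sandwich levels end at 6.12, and for Tpm2 both cultures rise, to 6.66 and 6.01.

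Of the cross-linkers, Flna and Actn1 were lower in sandwich at every day. Flna is filamin A, which joins actin filaments at wide angles into networks. Its monolayer arrays read 9.14, 9.15 and 9.12 at day 1, 9.97, 9.74 and 9.93 at day 2, 10.70, 10.68 and 10.89 at day 3 and 11.17, 11.10 and 11.43 at day 8. In sandwich the readings were 8.29, 8.12 and 8.40 at day 1, 8.08, 7.95 and 8.14 at day 2, 8.24, 8.08 and 8.08 at day 3 and 8.91, 8.58 and 8.31 at day 8. The differences at days 1, 2, 3 and 8 were -0.87, -1.82, -2.62 and -2.63 (± 0.12), the last being 6.21-fold lower in sandwich. Actn1 is alpha-actinin 1, which sets filaments side by side in bundles. For it the monolayer arrays read 9.79, 10.00 and 10.11 at day 1, 10.58, 10.75 and 11.18 at day 2, 11.40, 11.25 and 11.56 at day 3 and 11.64, 11.63 and 11.90 at day 8. Its sandwich arrays stood at 8.91, 8.86 and 9.02 at day 1, 8.78, 9.00 and 9.12 at day 2, 8.40, 8.96 and 8.92 at day 3 and 9.23, 9.10 and 9.09 at day 8. Every sandwich array lay below every monolayer array of its day, with differences of -1.04, -1.87, -2.64 and -2.58 (± 0.15), 5.99-fold lower at day 8. A further Actn1 probe set (1398294_at) gave -0.85, -1.65, -2.41 and -2.18 (± 0.19).

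Cnn2, calponin 2, which binds along filaments and restrains myosin, reached its highest monolayer level at day 3 and lay lower again at day 8. In monolayer the 3 arrays read 10.22, 10.13 and 10.18 at day 1, 10.55, 10.75 and 10.96 at day 2, 11.45, 11.28 and 11.32 at day 3 and 10.97, 10.78 and 10.79 at day 8. The corresponding sandwich arrays were 9.49, 9.14 and 9.30 at day 1, 8.98, 9.02 and 9.07 at day 2, 8.63, 9.00 and 8.92 at day 3 and 9.37, 9.28 and 9.04 at day 8. Its culture difference was -0.87, -1.73, -2.50 and -1.62 (± 0.11) at days 1, 2, 3 and 8, 5.66-fold lower in sandwich at day 3 and 3.07-fold lower at day 8.

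The tropomyosins are given by their brightest probe sets, 1370287_a_at for Tpm1 and 1372219_at for Tpm2. For Tpm1 in monolayer the 3 arrays read 11.79, 11.47 and 11.37 at day 1, 12.11, 11.91 and 11.68 at day 2, 12.51, 12.31 and 12.23 at day 3 and 13.04, 12.59 and 12.48 at day 8. In the sandwich, Tpm1 stood at 11.23, 10.76 and 10.95 at day 1, 11.17, 10.87 and 11.13 at day 2, 11.11, 10.93 and 10.86 at day 3 and 11.25, 10.84 and 10.84 at day 8. The first replicate was the highest of the 3 in each of the 8 groups. The differences of this Tpm1 probe set were -0.56, -0.85, -1.38 and -1.72 (± 0.15), 3.30-fold lower in sandwich at day 8, and those of the mean over all 7 Tpm1 probe sets were -0.19, -0.42, -0.55 and -0.82 (± 0.10). Tpm2 read 4.03, 4.16 and 4.56 at day 1, 4.58, 4.59 and 4.52 at day 2, 5.91, 5.83 and 5.64 at day 3 and 6.97, 6.17 and 6.84 at day 8 in monolayer. Its sandwich values were 4.01, 4.21 and 4.31 at day 1, 4.24, 4.26 and 4.40 at day 2, 4.79, 4.43 and 4.66 at day 3 and 6.41, 6.05 and 5.56 at day 8. The Tpm2 arrays of the cultures overlapped at days 1 and 8 and were apart at days 2 and 3, and the differences were -0.08, -0.26, -1.17 and -0.66 (± 0.18). Most Tpm2 group means lay below the median of all values, where the background of the probe set is unknown, and its other probe set (1392976_at) stayed between 3.90 and 4.07 in all groups.

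Myl9, the regulatory light chain of non-muscle and smooth muscle myosin II, had group means of 6.53, 6.97, 7.83 and 8.03 in monolayer at days 1, 2, 3 and 8 and of 6.46, 6.37, 6.48 and 7.05 in sandwich. The cultures overlapped at day 1 and were apart later, with differences of -0.07, -0.60, -1.35 and -0.98 (± 0.14). Vcl, vinculin, which links integrin complexes to actin, lay at 9.02, 9.09, 9.38 and 9.25 in monolayer and at 8.52, 8.27, 8.29 and 8.33 in sandwich, apart at every day, with differences of -0.49, -0.82, -1.09 and -0.93 (± 0.10). Its other 2 probe sets read -0.69, -1.08, -1.04 and -1.03 (1375538_at, ± 0.18) and -0.28, -0.34, -0.74 and -0.66 (1398476_at, ± 0.20). Zyx, zyxin, a LIM protein of focal adhesions and stress fibres, overlapped at day 1 and was apart afterwards, with differences of -0.21, -0.91, -1.04 and -1.06 (± 0.21). As for Tpm1, its first replicate was the highest in each of the 8 groups.

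Across the set, all sandwich arrays lay below all monolayer arrays for 7 of the 10 genes at day 1, where 9.69% of all probe sets did so. At days 2, 3 and 8 the counts were 10, 10 and 9 genes, beside 10.3%, 14.5% and 19.3% of all probe sets. The overlapping genes were Tpm2, Myl9 and Zyx at day 1 and Tpm2 at day 8. These counts follow from how the genes were chosen and are given as a description. The median difference of the 10 genes was -0.71, -1.32, -1.94 and -1.67, where that of all probe sets was 0.01 to 0.02.

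**Figure D2:**
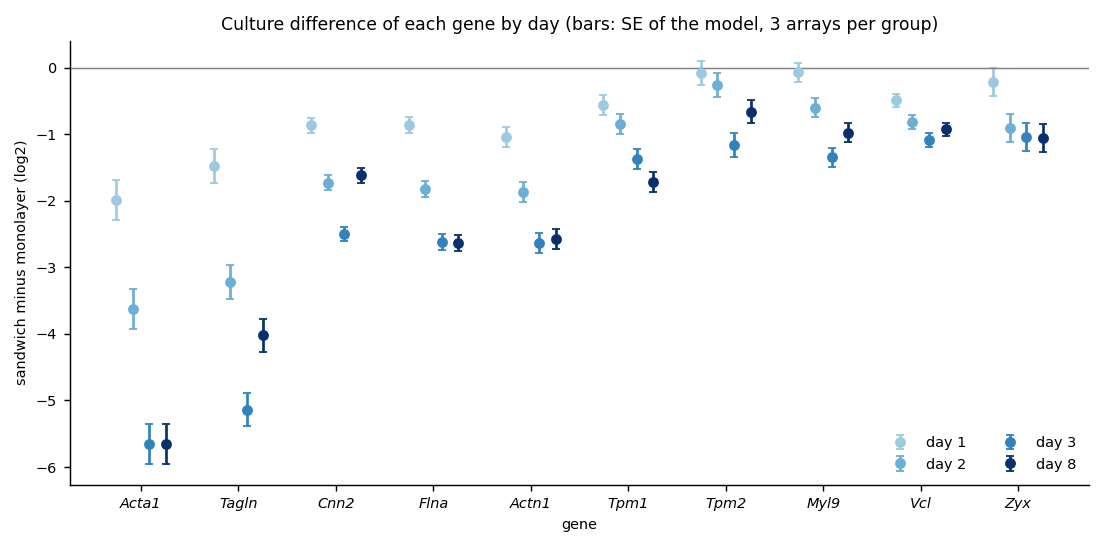
The sandwich minus monolayer difference (log2) of each of the 10 genes at days 1, 2, 3 and 8, with the SE of the model; the line at 0 marks equal levels. Acta1 and Tagln lie lowest, down to -5.66 and -5.14, and every value is below 0, with Tpm2 and Myl9 at day 1 nearest to it.

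The change with time within each culture was tested with limma over all 31042 probe sets. The same arrays enter the culture differences above, which were known when the 10 genes were picked. The p-values and counts of these genes below carry that choice and are no independent evidence. In monolayer, 9 of the 10 genes rose from day 1 to day 3, where 8.82% of all probe sets did. Acta1 rose by 5.27 ± 0.30 (38.6-fold, adjusted p = 1.82e-12) and Tagln by 4.98 ± 0.25 (31.5-fold, adjusted p = 2.15e-13). Flna (1.62), Tpm2 (1.54), Actn1 (1.44), Myl9 (1.3), Cnn2 (1.17), Tpm1 (0.81) and Vcl (0.36, adjusted p = 0.00698) followed. Zyx stood at 0.50 ± 0.21 with overlapping arrays (adjusted p = 0.101). With the replicate number as a block, Zyx was called, at 0.50 ± 0.11 (adjusted p = 0.000964). For Vcl the call rested on the third array of day 3, without which the value was 0.30 (adjusted p = 0.0543).

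From day 3 to day 8 in monolayer, 2 genes rose further and 1 fell, beside 6.92% and 5.59% of all probe sets. The risers were Tpm2 by 0.87 ± 0.18 (adjusted p = 0.00152) and Flna by 0.48 ± 0.12 (adjusted p = 0.0075, and 0.0678 without the third array of day 8). Cnn2 fell by 0.50 ± 0.11 (adjusted p = 0.00323). Acta1 stood at 0.02 ± 0.30 (adjusted p = 0.987), and Tagln stood at -0.39 ± 0.25 (adjusted p = 0.414) although its arrays of the 2 days did not overlap. Over the whole span from day 1 to day 8, 8 of the 10 were higher, beside 15.0% of all probe sets. The others were Vcl at 0.24 (adjusted p = 0.0624) and Zyx at 0.47 (adjusted p = 0.0969). With the replicate number as a block, Zyx was also called over this span (adjusted p = 0.00106).

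In sandwich, only Acta1 and Tagln of the 10 genes rose from day 1 to day 3, by 1.60 ± 0.30 (adjusted p = 0.000336) and 1.32 ± 0.25 (adjusted p = 0.00041), where 7.40% of all probe sets rose. Cnn2 fell by 0.46 ± 0.11 (adjusted p = 0.00592), where 7.43% of all probe sets fell, and its adjusted p was 0.0533 without the first array of day 1 and 0.0619 without the first of day 3. Without the third array of day 3, Acta1 rose by 1.02 and Tagln by 0.92. From day 3 to day 8 the genes that rose were Tpm2 by 1.38 ± 0.18 (adjusted p = 7.18e-06), Myl9 by 0.57 ± 0.14 (adjusted p = 0.00727), Flna by 0.47 ± 0.12 (adjusted p = 0.0102) and Cnn2 by 0.38 ± 0.11 (adjusted p = 0.0308). That is 4 of 10 beside 5.58% of all probe sets, and 2 of 10, Tpm2 and Myl9, without the first sandwich array of day 8. The Cnn2 call was also lost without the first array of day 3 (0.27, adjusted p = 0.204) or the second of day 8 (0.36, adjusted p = 0.0951). With the replicate number as a block, Tagln (0.73, adjusted p = 0.0614) and Actn1 (0.38, adjusted p = 0.109) also passed over that interval, at adjusted p = 0.029 and 0.0286. Tagln was also called without the third array of day 3, at 1.13 ± 0.21 (adjusted p = 0.000729).

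Over days 1 to 8, 5 genes rose in sandwich, beside 11.6% of all probe sets. They were Tagln by 2.05 ± 0.25 (adjusted p = 5.62e-07), Tpm2 by 1.83 ± 0.18 (adjusted p = 2.5e-08), Acta1 by 1.62 ± 0.30 (adjusted p = 0.000148), Myl9 by 0.59 ± 0.14 (adjusted p = 0.00217) and Flna by 0.33 ± 0.12 (adjusted p = 0.0458). The Flna call was lost without any of 4 single arrays, among them the first sandwich array of day 8 (0.17, adjusted p = 0.34). The other 5 lay between -0.39 (Zyx) and 0.21 (Actn1), Tpm1 at 0.00 ± 0.15. As a description, the sandwich change from day 1 to day 8 minus the monolayer change was -3.67 ± 0.42 for Acta1 and -2.54 ± 0.35 for Tagln. It was -1.77 for Flna, -1.54 for Actn1, -1.16 for Tpm1, -0.91 for Myl9, -0.86 for Zyx, -0.75 for Cnn2, -0.58 ± 0.26 for Tpm2 and -0.43 for Vcl. The sandwich means of day 1 were 4.5 for Acta1 and 4.83 for Tagln. Both lay below the median of all values, where the background is unknown. The Tpm2 value was -0.36 without the third sandwich array of day 8 and -0.82 without the second monolayer array of day 8.

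The 7 Tpm1 probe sets did not move alike. Tpm1 makes several tropomyosins by alternative splicing and promoters, and the files do not say which of them a probe set reads. A further bright probe set, 1370288_a_at, rose in monolayer from 10.35 to 11.49 between days 1 and 8 (1.14 ± 0.15, adjusted p = 1.59e-06), as did the gene's main one, 1370287_a_at (1.16 ± 0.15, adjusted p = 1.52e-06). In sandwich 1370288_a_at fell from 9.83 to 9.41 (-0.42 ± 0.15, adjusted p = 0.0475). Probe set 1395794_at instead fell in both cultures, from 7.96, 7.50 and 7.89 to 6.74, 6.94 and 6.75 in monolayer (-0.97 ± 0.18, adjusted p = 0.00012) and from 8.03, 8.13 and 7.66 to 7.01, 6.27 and 6.44 in sandwich (-1.37 ± 0.18, adjusted p = 1.93e-06). Its sandwich minus monolayer differences were 0.16, -0.30, 0.03 and -0.23 (± 0.18), with overlapping arrays at days 1, 3 and 8. Those of 1370288_a_at were -0.52, -0.88, -1.63 and -2.08 (± 0.15), those of 1368724_a_at -0.16, -0.35, -0.25 and -0.65 (± 0.13), and those of 1371241_x_at -0.28, -0.63, -0.70 and -1.28 (± 0.19), all with apart arrays except 1371241_x_at at day 1. Probe set 1368724_a_at stood at -0.19 ± 0.13 over the same days in monolayer (adjusted p = 0.315) and fell by 0.68 in sandwich (adjusted p = 0.000225), and 1371241_x_at fell by 0.75 in sandwich (adjusted p = 0.0032). The last 2, 1371240_at and 1370513_at, stayed between 3.62 and 4.13, with differences of -0.05 to 0.19 and overlapping arrays at every day. With the mean of all Tpm1 probe sets as the gene value, the monolayer change to day 8 was 0.16 (adjusted p = 0.203) and the sandwich change a fall of 0.47 (adjusted p = 0.000432), so the monolayer rise of Tpm1 holds for 2 of its 7 probe sets.

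**Figure D3:**
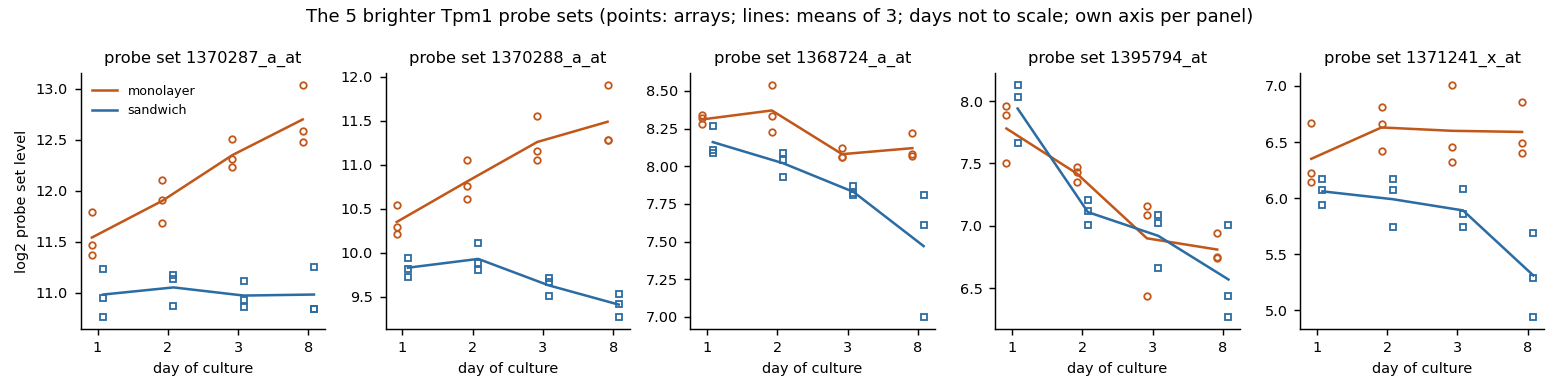
Log2 levels of the 5 brighter Tpm1 probe sets by day of culture, 1 panel each with its own axis; points are arrays and lines join means of 3. The first 2 panels rise in monolayer, to means of 12.70 and 11.49 at day 8, while 1395794_at falls in both cultures, to 6.81 and 6.57.

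Of the 3 other actin genes of the pathway list that were measured, none had a culture difference near that of Acta1. Beta-actin was not on that list and is given here only by its control probe sets, as other probe sets for it were not sought. Its 3′ control probe set had means of 13.34, 13.55, 13.78 and 13.86 in monolayer at days 1, 2, 3 and 8. The sandwich means were 13.19, 13.08, 13.0 and 13.13, and this difference was not tested. Acta2, the alpha-actin of smooth muscle and of activated stellate cells, stood at 7.51, 7.57, 7.79 and 8.15 in monolayer and at 7.46, 7.30, 7.26 and 7.55 in sandwich, with a spread at day 8 from 7.54 to 9.06 in monolayer. Its culture difference at day 8 was -0.61 ± 0.26 (adjusted p = 0.0909, and 0.013 with the replicate number as a block). Actg1, the cytoplasmic gamma-actin, picked out after its values were seen, was lower in sandwich by 0.25 to 0.35 at days 2, 3 and 8 (adjusted p = 0.00511, 0.000734 and 0.00752). Actg2, the smooth muscle gamma-actin, lay between 3.88 and 4.49 in all groups, at -0.27 ± 0.10 at day 8 (adjusted p = 0.0521, and 0.0337 with the block). Actin genes are close copies of each other, and whether the Acta1 probe set also reads RNA of a relative was not tested; Actc1, the cardiac form, was not analysed here.

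The list of skeletal muscle markers as a whole did not move with Acta1. Of 8 measured apart from Acta1, 5 (Ckm, Mb, Tnnt3, Myh4 and Tnnc2) lay below the median of all values in every group, and the mean of the 8 was 4.89 to 5.08 in the monolayer groups and 4.97 to 5.02 in sandwich. Of the 8, Actn3 was lower in sandwich at day 2 (-0.51, adjusted p = 0.00908) and Tnnc2 higher at day 8 (0.34, adjusted p = 0.0173), both picked out after their values were seen. With Acta1 included, 2 of 9 rose from day 1 to day 3 in each culture, beside 8.82% of all probe sets in monolayer and 7.40% in sandwich. Over days 1 to 8, 1 of the 9 rose and 1 fell in monolayer, beside 15.0% and 15.8%. In sandwich 2 rose and 0 fell, beside 11.6% and 13.2%. From day 3 to day 8, 2 of the 9 fell in monolayer and 1 in sandwich, beside 5.59% and 5.60%. Among 8 smooth muscle markers, Cnn1, Lmod1, Synpo2 and Actg2 were below that median throughout, and the mean of all 8 was 5.40 to 5.78 in monolayer and 5.39 to 5.52 in sandwich. In monolayer 3 of these 8 (Cnn1, Des and Smtn) rose from day 1 to day 3, beside 8.82% of all probe sets. Over days 1 to 8, 4 of the 8 rose there, beside 15.0%. Cnn1 and Smtn were lower in sandwich at days 3 and 8, when 8.84% and 15.6% of all probe sets were. The stellate cell and fibroblast list, of which Gfap, Lrat, Pdgfra, Dcn, Lum and Thy1 were below the median in all groups, had a mean of 4.77 at day 1 and 5.58 at day 8 in monolayer, against 4.83 and 5.36 in sandwich. Of its 12 genes 2 (Des and Reln) rose in monolayer from day 1 to day 3, beside 8.82% of all probe sets. From day 1 to day 8, 5 of the 12 rose there, beside 15.0%. At day 8, 3 genes of the list (Reln, Col1a2 and Col3a1) were lower in sandwich, beside 15.6% of all probe sets. Within it Col1a2, a collagen chain picked out after its values were seen, stood at 4.13, 4.76 and 8.14 at days 1, 3 and 8 in monolayer and at 4.34, 4.73 and 7.24 in sandwich. Cholangiocyte markers moved at day 8 in monolayer, with a list mean of 6.99 against 5.69 in sandwich, and there Krt19, likewise picked out afterwards, stood at 7.97 against 4.78. All 6 endothelial markers were below the median. The mean of 6 macrophage markers was 5.72 to 6.18 in monolayer and 5.95 to 6.25 in sandwich. Of these 6 macrophage markers, 5 were called higher in sandwich at day 3, beside 7.70% of all probe sets. At day 8, 1 was called higher and 1 lower, beside 11.9% and 15.6%. The beta-actin control probe sets, which report RNA integrity, had a 3′ minus 5′ difference of 0.79 to 0.86 in monolayer and 0.94 to 1.03 in sandwich, and those of GAPDH 0.23 to 0.33 and 0.24 to 0.38. The part of these markers and of the 3′ to 5′ difference in the culture differences was not tested.

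**Figure D4:**
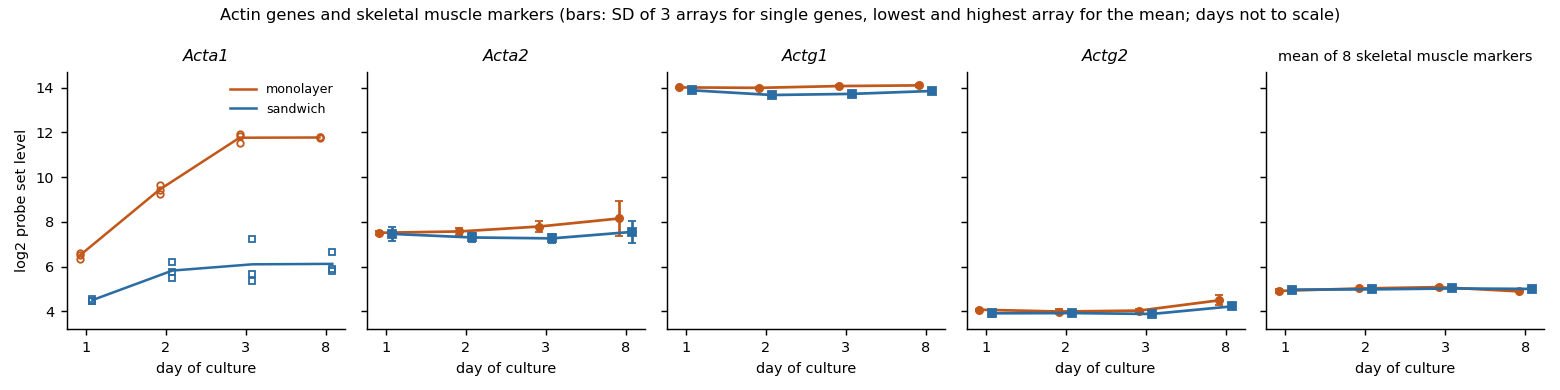
Log2 levels by day for Acta1 (points are arrays), for Acta2, Actg1 and Actg2 (means with SD of 3 arrays) and for the mean of 8 skeletal muscle markers (bars from the lowest to the highest array), on a common axis. Acta1 rises to 11.77 in monolayer, while Acta2 ends at 8.15 and the muscle marker mean stays at or below 5.08.

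The rest of the pathway was read from 81 further genes, of which 73 were measured. The list was drawn up with earlier results of these data known. At day 1, 7 of the 73 were lower in sandwich and 0 higher (limma, adjusted p under 0.05), beside 1.20% of all probe sets lower and 0.573% higher, and at day 2 31 were lower and 0 higher, beside 3.96% and 1.87%. The day 1 count was 3 without the second monolayer array and 4 without the first or the second sandwich array. At day 3 48 were lower and 4 higher, beside 8.84% and 7.70% of all probe sets, and at day 8 52 lower and 4 higher, beside 15.6% and 11.9%, the 4 of day 3 becoming 2 without the first monolayer or the second sandwich array. Of the same 73 genes, in monolayer 36 rose and 3 fell from day 1 to day 3, 15 rose and 7 fell from day 3 to day 8, and 41 rose and 3 fell over days 1 to 8, where 8.82%, 6.92% and 15.0% of all probe sets rose and 11.0%, 5.59% and 15.8% fell. The corresponding counts in sandwich were 10 risers and 16 fallers, 16 and 4, and 18 and 13, where 7.40%, 5.58% and 11.6% of all probe sets rose and 7.43%, 5.60% and 13.2% fell. The 7 monolayer fallers after day 3 became 3 without the third array of day 3 and 4 without the first of day 8, and the 16 sandwich fallers became 7 without the first array of day 3. The change from day 1 to day 8 was lower in sandwich than in monolayer for 28 and higher for 3 (limma interaction term), beside 7.83% and 7.80% of all probe sets. The median culture difference of the 73 was -0.16, -0.32, -0.53 and -0.49 at days 1, 2, 3 and 8.

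All 7 other genes for proteins that bind along the filament, Tpm3, Tpm4, Cnn1, Cnn3, Tagln2, Cald1 and Smtn, were lower in sandwich at days 3 and 8, where 8.84% and 15.6% of all probe sets were. Tagln2, a transgelin of non-muscle cells, was lower, at -0.47 ± 0.08 at day 1 and -1.17 ± 0.08 at day 8 (adjusted p = 0.00206 and 5.92e-11). Tpm4, a tropomyosin of non-muscle cells, was lower at all 4 days, from -0.50 ± 0.08 to -0.96 ± 0.08 (adjusted p = 0.000548 and 6.49e-10). Cnn1, the smooth muscle calponin, was at -0.91 ± 0.14 at day 8 (adjusted p = 1.66e-05), at levels below the median of all values.

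Among 7 measured myosin genes, 4 were lower and 2 higher in sandwich at day 8, where 15.6% of all probe sets were lower and 11.9% higher. Myh9, the heavy chain of non-muscle myosin IIA, was lower, at -0.99 ± 0.16 (1.99-fold, adjusted p = 1.82e-05). The genes that went the other way were Myh14, the heavy chain of non-muscle myosin IIC, at 1.31 ± 0.12 (2.49-fold higher, adjusted p = 2.02e-09), and Mylk, the kinase of the myosin light chain, at 0.77 ± 0.11 (1.70-fold higher, adjusted p = 4.5e-06). Both rose with time in the 2 cultures. From day 1 to day 8 Mylk rose by 1.58 in monolayer and 2.15 in sandwich, and Myh14 by 0.79 and 2.20 (adjusted p between 1.13e-13 and 6.28e-06).

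Of 13 cross-linkers and LIM proteins, 11 were lower and 1 higher in sandwich at day 8, beside 15.6% and 11.9% of all probe sets. Pdlim5 and Pdlim7, PDZ and LIM proteins that bind alpha-actinin or filaments, stood at -1.59 ± 0.11 and -1.55 ± 0.15 (adjusted p = 3.39e-11 and 7.58e-09). Palld, palladin, a scaffold of actin bundles, was at -1.55 ± 0.24 at day 3 (adjusted p = 3.4e-05). The gene that was higher was Actn2, a sarcomeric alpha-actinin, at 0.92 ± 0.13 (adjusted p = 5.39e-06), and it fell with time in both cultures, by 1.24 in monolayer and 0.69 in sandwich (adjusted p = 5e-08 and 0.000255). Csrp2, a LIM protein of smooth muscle, also fell in both, by 0.66 and 1.16 (adjusted p = 0.00316 and 6.72e-06).

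At focal adhesions 8 of 14 genes were lower in sandwich at day 8, beside 15.6% of all probe sets. Tes, testin, a partner of zyxin, was lower, at -1.39 ± 0.13 at day 2 and -1.88 ± 0.13 at day 8 (adjusted p = 6.2e-08 and 2.93e-11), 3.69-fold at day 8. Lims1, which joins integrin-linked kinase to its partners, fell by 1.26 ± 0.10 in sandwich between days 1 and 8 (adjusted p = 3.16e-10) and stood at 0.02 in monolayer (adjusted p = 0.929). Parva, another partner of that kinase, rose by 1.89 in monolayer and 1.93 in sandwich (adjusted p = 4.03e-08 and 4.74e-08). Lpp, a LIM protein related to zyxin, fell by 0.43 and 0.51 (adjusted p = 0.00228 and 0.000583).

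Filament assembly had 16 of 17 genes lower in sandwich at days 3 and 8, beside 8.84% and 15.6% of all probe sets. Tmsb4x, thymosin beta-4, which sequesters actin monomers, was lower, at -1.25 ± 0.15 at day 2 (adjusted p = 2.06e-06) and -0.56 at day 8 (adjusted p = 0.00455), and rose in both cultures from day 1 to day 8, by 1.80 and 1.84 (adjusted p = 4.15e-10 and 4.61e-10). Of 12 regulators, 5 were lower and 1 higher at day 8, when 15.6% and 11.9% of all probe sets were. Fhl2, a LIM coregulator of serum response factor, had the largest difference of the 73 genes at day 8, growing from -0.71 ± 0.12 at day 1 through -1.28 and -1.73 to -2.13 ± 0.12 (adjusted p = 0.00134 at day 1 and 8.23e-13 at day 8, 4.37-fold). Limk2, the kinase of cofilin, was higher in sandwich by 0.27 at day 3 and 0.26 at day 8 (adjusted p = 0.0488 and 0.0386), calls that several single arrays decide, as without the second sandwich array of day 8 (0.16, adjusted p = 0.239).

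Srf, serum response factor itself, was lower in sandwich, at -0.74 ± 0.11 at day 2, -0.75 ± 0.11 at day 3 and -0.37 ± 0.11 at day 8 (adjusted p = 4.42e-05, 9.4e-06 and 0.011). With the mean of all its probe sets the day 8 value was 0.07 (adjusted p = 0.639), so its direction at day 8 depends on the probe set. The day 8 call was also lost without the second monolayer array (adjusted p = 0.0541) or the first sandwich array (adjusted p = 0.0726). In monolayer the main Srf probe set rose by 0.50 from day 1 to day 3 (adjusted p = 0.0013) and fell by 0.39 afterwards (adjusted p = 0.0159). With the mean of all probe sets the rise was 0.15 (adjusted p = 0.276). The fall was not called without the third array of day 3 (adjusted p = 0.0737) or the first of day 8 (adjusted p = 0.101). In sandwich the main probe set was 8.22, 7.87, 8.15 and 8.14 at days 1, 2, 3 and 8.

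**Figure D5:**
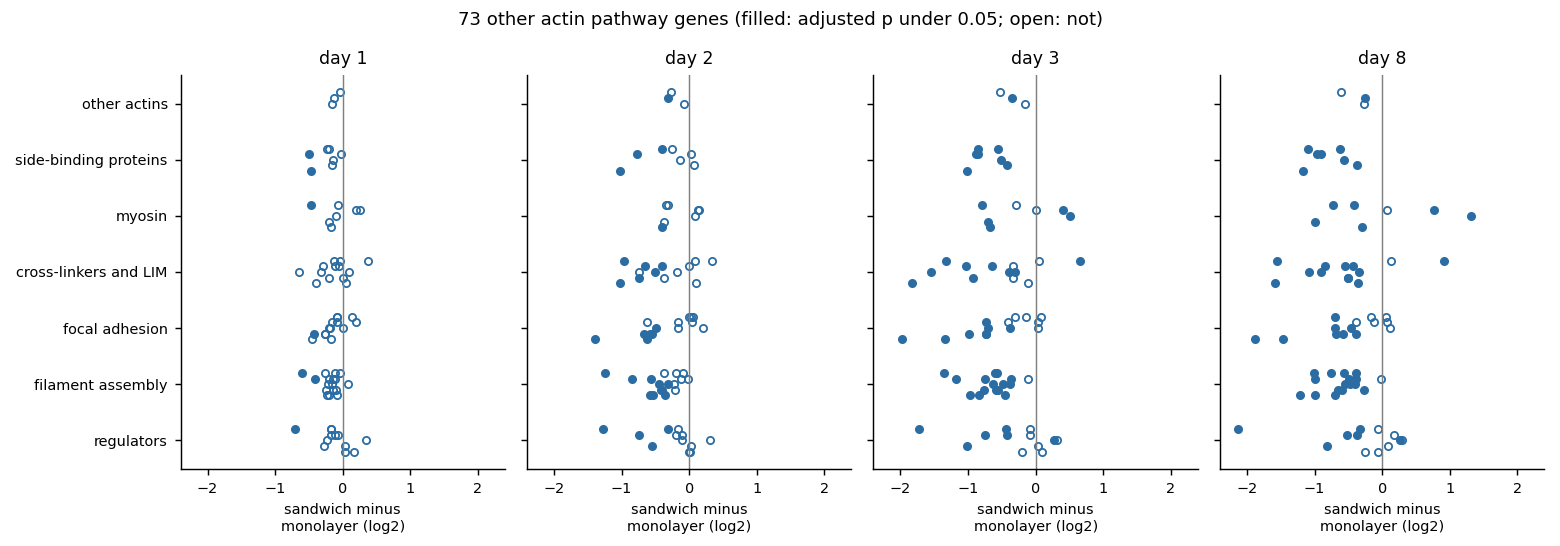
Sandwich minus monolayer differences (log2) of the 73 measured pathway genes at each day, in rows by role; filled points had an adjusted p under 0.05. At day 8, 52 filled points lie left of 0 and 4 to the right: Myh14, Mylk, Actn2 and Limk2.

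The genes whose 8 group means were most like the mean of the 10 standardized profiles were sought among 2057 genes spanning at least 1 log2 unit. They were Sox4 (Pearson r = 0.991), Bub1 (0.99), Stk38l (0.989), Chmp4c (0.987) and Flrt3 (0.986). For Acta1 alone they were Chmp4c (0.993), Ect2 (0.991) and Arhgap23 (0.987). The group means of Bub1 ran from 4.28 to 5.52, all below the median of all values, where the background is unknown. Those of Ect2 ran from 4.12 to 6.26, most of them below that median. Each r is over 8 group means that share the split into cultures, and is given as a description. Sox4, a transcription factor, stood at 8.79 at day 1 and 11.87 at day 8 in monolayer, against 6.67 and 7.59 in sandwich.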

How the data were processed

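RNA of 24 rat hepatocyte cultures was measured on Affymetrix arrays, and the authors deposited 1 log2 value per probe set and array. RMA, the usual background correction, quantile normalization and summary for these arrays, and limma are named in the submitters' processing notes without a version or role. RMA pulls arrays to a common distribution, so a shift shared by all genes cannot be seen. The deposited log2 values were used unchanged. Probe sets were named by the platform annotation: of 31042 tested, 20826 carried 1 symbol, 436 several and 9780 none, and 57 control probe sets were left out.

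A limma model (version 3.58.1, R 4.3.3) with 8 group means took in all 24 arrays (16 residual degrees of freedom), with moderated tests and Benjamini-Hochberg adjustment over the 31042 probe sets and a threshold of 0.05. The script was tested on simulated data. The 10 genes and all lists were chosen with earlier results of these data known. Named genes were the 10, the 4 other pathway genes with the largest called difference in each direction for each culture contrast and for day 8 against day 1, and Acta2, Actg2, Cnn1, Myh9, Tpm4 and Srf throughout; others are said to be picked afterwards. A CArG box was CC, 6 bases of A or T, and GG.

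The titles number replicates 1 to 3 in every group. Deviations of same-numbered arrays from their group means correlated above 0.1 for every number in the day 8 culture difference (0.42, 0.12 and 0.25) and in the sandwich change from day 3 to day 8 (0.23, 0.38 and 0.38), and not in the other comparisons. The numbers may therefore pair the arrays in those 2 comparisons, and the source of such a pairing is not given in the labels. A pairing may not be confined to them. In the monolayer changes from day 1 to day 3 and from day 3 to day 8, number 1 gave 0.44 and 0.49, and number 2 gave 0.05 and 0.06. Over all pairs of arrays from different groups, the median was 0.2 for the same number and -0.13 for different numbers. The ranges were -0.43 to 0.53 and -0.53 to 0.5. The main model held no term for the replicate number in any comparison. Its calls thus ignore a pairing, and results with the number as a block are given as an alternative. Alternatives were the number as a block, each array left out, quantile normalization, median centring, brighter probe sets only, a trended robust eBayes and the mean of a gene's probe sets. No 2 arrays were identical.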

Additional observations from a re-analysis of the deposited data

Results flagged for a closer look

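None of the 10 genes is listed here, because their culture differences chose them, and groups of 3 arrays are too small to test for a single outlying array. Of the 73 other pathway genes, the change from day 1 to day 8 was lower in sandwich for 28 and higher for 3 (limma interaction term, adjusted p under 0.05), beside 7.83% and 7.80% of all probe sets. The 13 below are those among the named genes, which were named for culture differences and day changes that enter the same term, so their number is no separate evidence. The change was lower in sandwich for the focal adhesion protein Tes (-1.43), the LIM proteins Fhl2 (-1.42), Pdlim7 (-1.42), Lims1 (-1.27) and Pdlim5 (-1.20), the calponin Cnn1 (-0.88), the myosin heavy chain Myh9 (-0.78), Tagln2 (-0.70), the GTPase Rhoc (-0.54) and the tropomyosin Tpm4 (-0.46). Fhl2, Pdlim5 and Pdlim7 rose in monolayer, by 0.71, 0.35 and 1.00, and fell in sandwich, by 0.70, 0.85 and 0.42. Rhoc and Tpm4 rose in both cultures, less in sandwich (1.70 against 1.16, and 0.95 against 0.48). The change was higher in sandwich for Myh14 (1.41), Mylk (0.57) and Limk2 (0.50). Myh14 and Mylk rose in both cultures, and Limk2 stood at -0.13 in monolayer and rose by 0.36 in sandwich. The Myh9 difference was -0.59 (adjusted p = 0.0573) without the third sandwich array of day 8.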

How the results depend on the processing

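Recomputed under the alternatives, 552 counts stayed within 1.5 times the reported one and 17 did not. Of the values of single genes, 2526 kept their direction and side of the threshold, 57 lost a call, 31 gained one, 15 without a test moved by more than the spread and 2 reversed. With single arrays left out, the pathway genes called lower at day 1 ranged from 3 to 6 (7 reported), and all probe sets called there from 322 to 465 (552 reported). Pathway genes called higher at day 3 ranged from 2 to 4 (4 reported), those falling in monolayer from day 3 to day 8 from 3 to 6 (7 reported; 3 without the third array of day 3), those falling in sandwich from day 1 to day 3 from 7 to 14 (16 reported; 7 without the first array of day 3), and the members that rose in sandwich from day 3 to day 8 from 2 to 5 (4 reported). With the replicate block, 1 pathway gene was called higher at day 1 and 1 at day 2, where 0 were reported (other counts stayed within 1.5 times). Under the block Zyx passed in monolayer from day 1 to day 3 and to day 8 (adjusted p = 0.000964 and 0.00106) and in sandwich as a fall (adjusted p = 0.0324 and 0.00661), Tpm1 in monolayer after day 3 (adjusted p = 0.00924), and Acta2 in monolayer from day 1 to day 8 (adjusted p = 0.00728) and at day 3 between the cultures (adjusted p = 0.0442). In the nearer part of the window 3 of the 8 genes had CATTCC. With the mean of all probe sets of a gene, Srf reversed, to -0.44 over days 1 to 8 in monolayer (0.11 reported) and to 0.07 at day 8 between the cultures, and Tpm1 and Vcl lost their monolayer rise from day 1 to day 3 (adjusted p = 0.606 and 0.161). With arrays centred, the sandwich rises of Flna to day 8 (adjusted p = 0.0662) and of Cnn2 after day 3 (adjusted p = 0.0539) were lost. With quantile normalization, Vcl and Zyx passed in monolayer from day 1 to day 8 (adjusted p = 0.00539 and 0.0394). The causes were not tested. For dim probe sets (Tpm2, Cnn1, Actg2), and for Acta1 and Tagln in sandwich at day 1, the background is unknown.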
